A study of Mus musculus with 768 samples.

Results

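The galectins Lgals1 and Lgals3, the S100 genes S100b, S100a4, S100a6, S100a10 and S100a11, and the annexin Anxa2 were followed across the states of single Schwann cells of the sciatic nerve of mouse pups at postnatal day 5. These 8 genes, of 25700 in the deposited table, were chosen by name, with earlier results of the same reads known. The tests of the other genes are therefore not blind to these data. Lgals3 was included because it had the largest fold of a group of intermediate cells in an earlier look at the same reads. The values of Lgals3 are therefore given as a description without a test.

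Galectins are lectins that bind galactose-containing sugars on glycoproteins and glycolipids, inside the cell and outside it. S100 proteins are small EF-hand proteins that usually form dimers, bind calcium and then attach to partner proteins, and S100b is a classical histological marker of Schwann cells. Annexin A2 binds acidic phospholipids of membranes in the presence of calcium and forms a tetramer with S100a10, whereas S100a11 is known as a partner of annexin A1.

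All pups were on the C57bl/6J background and carried P0Cre, a YFP reporter in the Rosa26 locus that Cre switches on, and a DsRed transgene under a beta actin promoter. Nerves were dissociated with enzymes, single eYFP-positive cells were sorted into 384-well plates, and libraries were made by Smart-Seq2, which reads whole transcripts and carries no molecular identifiers. Each of the 2 plates held a pool of 1 male and 1 female pup and is 1 biological replicate. There was no treated or mutant group. The Cre line marks cells with a history of P0 promoter activity, which limits the selection to that lineage.

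Wells with at least 1500 detected genes and outside the 4 plate corners were kept, 325 in replicate 1 and 330 in replicate 2. States were assigned from 12 genes, none of them among the 8 genes described. Cells with 5 or more reads in at least 3 of 10 mitotic genes were called cycling. The remaining cells were called immature below 10 CPM of Ncmap (read counts scaled to the same total in every cell or sum), intermediate at or above that and below 30000 CPM of Pmp22, and myelinating at or above 30000 CPM of Pmp22. Ncmap and Pmp22 encode proteins of the myelin sheath. Replicates 1 and 2 held 32 and 25 cycling, 106 and 122 immature, 79 and 70 intermediate, and 108 and 113 myelinating cells. The highest Ncmap level under its limit was 7.92 CPM and the lowest above it 11.4 CPM, and for Pmp22 these were 29896 and 30776 CPM. Exactly 3 of the mitotic genes were met in 4 cells and exactly 2 in 21 cells. Of the cells without a cycling call, 14 lay between 5 and 50 CPM of Ncmap. Of those with Ncmap, 73 lay between 20000 and 40000 CPM of Pmp22. The states are ranges along these genes rather than cell types.

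The plates held 226050990 and 203322077 reads, and the 8 sums of a plate and a state held from 13925435 to 98479212 reads. The median cell held 418998 to 819461 reads by state and replicate, with most in myelinating cells. The Schwann lineage markers Sox10, Erbb3 and Cnp were read in all 8 sums, at 178 to 311 CPM, 84.1 to 175 CPM and 1184 to 5362 CPM, while Gjb1 was at 0 in both cycling sums. The immune markers Ptprc, Aif1, Adgre1 and Lyz2 and the endothelial markers Pecam1, Cdh5, Emcn and Tek had no read in any kept cell. Other markers on those lists were low, with Cd68 at up to 13.1 CPM, Csf1r at up to 14.1 CPM and Cd14 at up to 2.38 CPM in any sum, and Kdr at 16.5 and 17.9 CPM in the myelinating sums. Pdgfrb, a pericyte marker, was at 40.2 to 44.6 CPM in intermediate and myelinating sums, and the perineurial markers Cldn1 and Slc2a1 reached 46.3 and 45.5 CPM in intermediate cells. None of the 655 kept cells held 3 or more of the 7 immune markers, which allows a share of up to 0.458%.

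Reads were summed over the cells of each plate and state, and the 8 sums were compared between states with the quasi-likelihood test of edgeR, with p-values adjusted over 13892 genes and a threshold of 0.05. Of the 7 genes tested, 1 passed between intermediate and immature cells (Lgals1, lower), against 1.95% of all genes tested, 0.965% higher and 0.986% lower. Between myelinating and intermediate cells 2 passed, both lower (Lgals1, S100a4), against 0.77% of all genes, 0.346% higher and 0.425% lower. Between myelinating and immature cells 2 passed, both lower (Lgals1, S100a4), against 5.1% of all genes, 2.58% higher and 2.51% lower. Between cycling and immature cells 1 passed, lower (S100b), against 2.46% of all genes, 1.21% higher and 1.25% lower. None of the 7 passed as higher in any of these comparisons. With the plate as a replicate block 2 passed in the first comparison (Lgals1, S100a11), both lower, 3 between myelinating and immature cells (Lgals1 and S100a4, lower, and S100a6, higher) and 0 in the last. Intermediate sums enter both of the first comparisons and immature sums 3 of the 4, so these are not independent. The median log2 change of the 7 genes was −0.07, 0.43, 0.35 and 0.13 in these comparisons, and that of all genes tested −0.03, 0.00, −0.04 and −0.13.

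**Figure D1:**
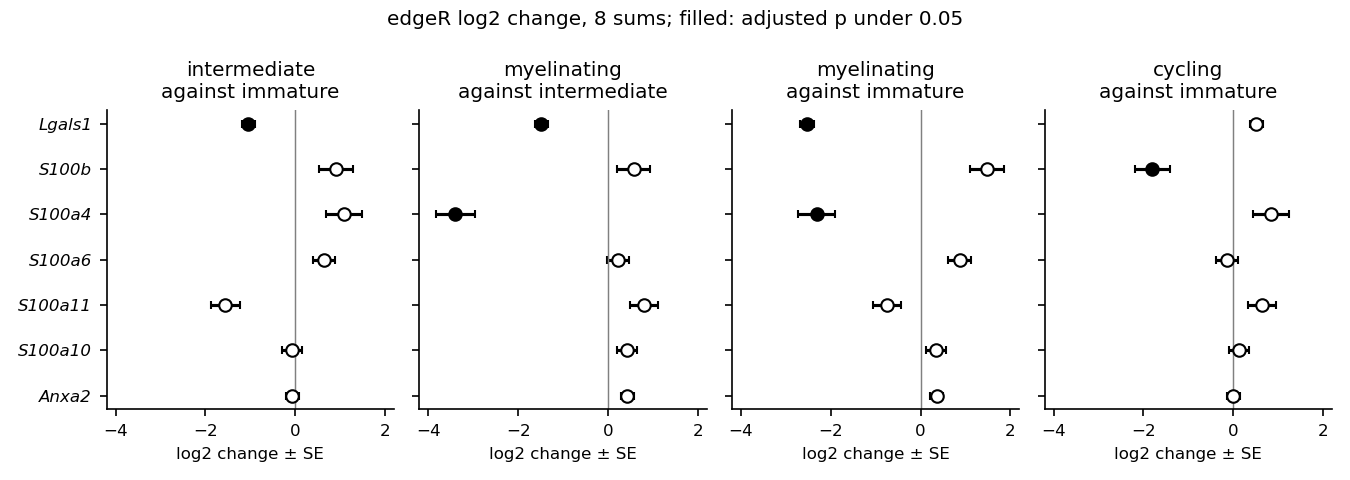
Log2 change ± SE of 7 genes in the 4 comparisons, from edgeR on 8 sums, with filled points where the adjusted p was under 0.05. Lgals1 is filled and to the left of 0 in the first 3 panels and S100a4 in the middle panels, and the S100a11 point at −1.56 in the first panel is open.

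Lgals1 passed the test in 3 of the 4 comparisons between states, with less of it in the more myelinating state each time. It encodes galectin-1, a homodimeric lectin, and lies on chromosome 15 (78926725 to 78930465, plus strand; GRCm38 with GENCODE vM21 gene bounds, as for all genes here). Its level was 2888 and 2732 CPM in cycling cells of replicates 1 and 2, 2045 and 2174 CPM in immature cells, 798 and 1058 CPM in intermediate cells, and 290 and 269 CPM in myelinating cells. The replicates of no state overlapped with those of a neighbouring state, and the order was the same in both plates.

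Lgals1 fell by 1.05 ± 0.15 (SE) on the log2 scale from immature to intermediate cells (edgeR adjusted p = 0.00862). It fell by a further 1.48 ± 0.15 from intermediate to myelinating cells (adjusted p = 0.00278). Over the whole span from immature to myelinating cells it fell by 2.53 ± 0.15 (adjusted p = 4.7e-05), in both of the 2 plates. Between cycling and immature cells the log2 change was 0.52 ± 0.14 (adjusted p = 0.118), which did not pass. The first of these calls was lost when the Pmp22 limit of the intermediate state was set at 20000 CPM (log2 change −0.92, adjusted p = 0.077).

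**Figure D2:**
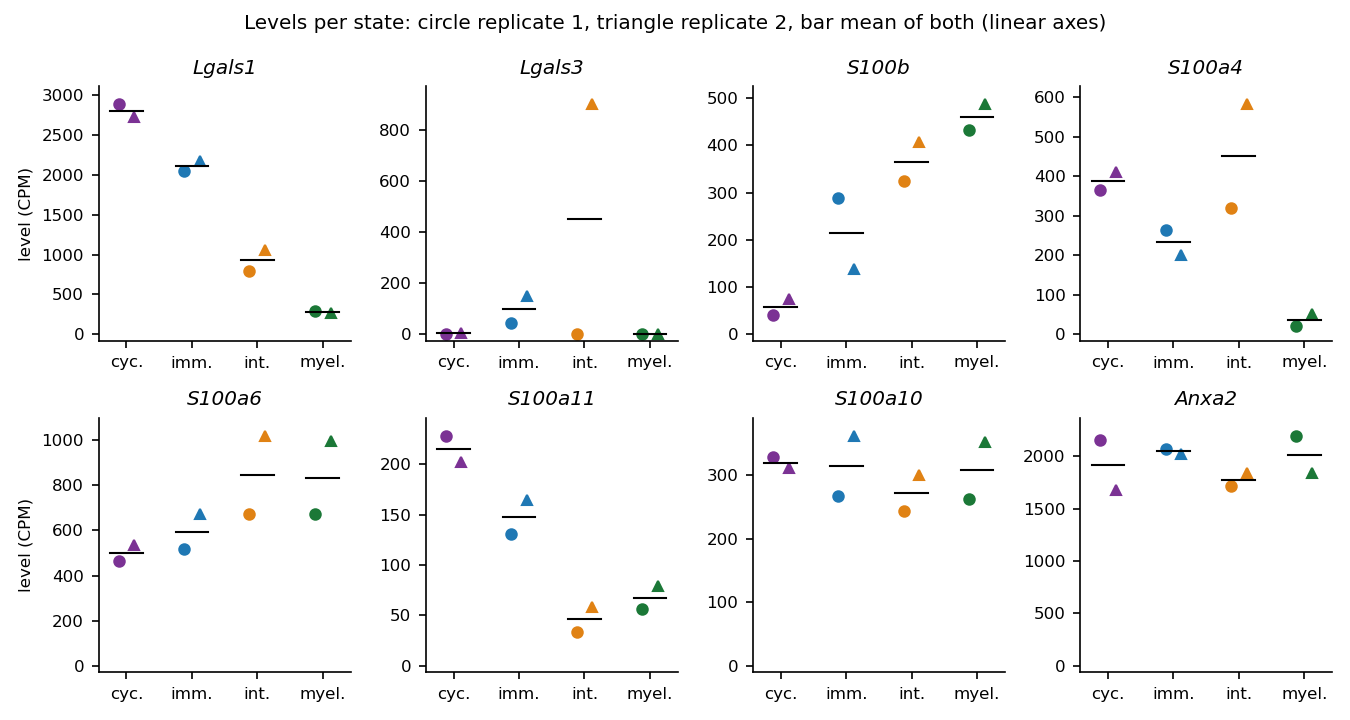
Level of each gene (CPM, linear axis from 0) in the summed reads of cycling, immature, intermediate and myelinating cells, as a circle for replicate 1, a triangle for replicate 2 and a bar for their mean. Lgals1 steps down from 2810 CPM in cycling to 279 CPM in myelinating cells, and the Lgals3 mean of intermediate cells lies between 0 and 898 CPM.

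Most cells of every state held Lgals1. With 5 or more reads as the criterion, Lgals1 was detected in 100% of cycling cells of both plates, in 98.2% ± 0.17 (SD, n = 2 plates) of immature, 92.7% ± 2.22 of intermediate and 84.2% ± 1.41 of myelinating cells. The median myelinating cell held 199 CPM in replicate 1 and 201 CPM in replicate 2, against 1984 and 1770 CPM in the median immature cell. Intermediate cells ranged from 86.7 CPM at the 10th percentile to 1852 CPM at the 90th in replicate 1, and from 106 to 1829 CPM in replicate 2.

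Among the 370 cells with Ncmap and without a cycling call, ordered by Pmp22 and divided into 6 bins of 61 or 62 cells, the mean Lgals1 level was 1296, 709, 480, 336, 233 and 223 CPM from the lowest to the highest bin. The lowest bin varied most between plates, at 938 and 1654 CPM. Pmp22 is part of the state rule, so this order shows where along the intermediate and myelinating range Lgals1 was low and is no separate test.

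Collagen transcripts moved alongside. The summed level of 6 fibroblast markers was 4331 to 4405 CPM in immature cells, 1914 to 2185 CPM in intermediate cells and 896 to 986 CPM in myelinating cells. Nearly all of it came from Col1a1, Col1a2 and Col3a1. Dcn reached at most 28.7 CPM, Lum 13.1 CPM and Pdgfra 0.963 CPM in any sum. Of the 655 kept cells, 469 (71.6%) held 3 or more of the 6 markers, so collagen reads were not confined to a small set of cells. Whether Lgals1 levels were tied to those of collagen was not tested.

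Lgals3 encodes galectin-3, the chimeric galectin with a collagen-like tail, which is abundant in macrophages. The gene lies on chromosome 14 (47367751 to 47386160, plus strand). Its level was 0 and 4.67 CPM in cycling cells, 44.1 and 149 CPM in immature cells, 0 and 898 CPM in intermediate cells, and 0.132 and 0.0344 CPM in myelinating cells. The intermediate mean was the highest of the states, and it rested on 1 of the plates.

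It rested, further, on 1 cell. Of 655 kept cells, 25 held any Lgals3 read, 11 held 5 or more and 3 exceeded 1000 CPM. Those 3 cells held 98.7% of the 48793 Lgals3 reads. The highest was an intermediate cell of replicate 2 with 23130 CPM, or 2.31% of all its reads. The others were immature cells, with 19784 CPM in replicate 2 and 4443 CPM in replicate 1. Without the highest cell, Lgals3 in intermediate cells of replicate 2 was 0.025 CPM, and without the highest cell of each immature sum it was 0.168 and 9.38 CPM. In replicate 1, 0 of 79 intermediate cells had a read, which allows a share of cells with a read of up to 3.8% and covers counting error only.

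**Figure D3:**
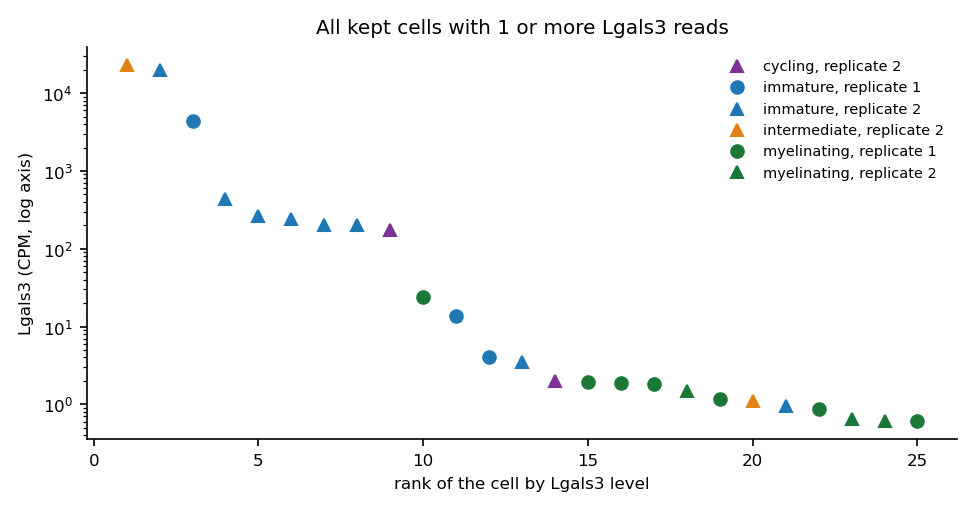
Lgals3 level (CPM, log axis) of the 25 kept cells with at least 1 Lgals3 read, ranked from highest to lowest, with colour for the state and circles or triangles for replicates 1 and 2. The 3 highest cells stand at 4443 CPM or more, 6 lie between 175 and 431 CPM, and the remainder are at 24 CPM or below.

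The 3 cells shared high levels of other transcripts. Ngfr encodes the p75 neurotrophin receptor, a marker of immature and non-myelinating Schwann cells. It stood at 1029, 1882 and 1725 CPM in them, in the order given above, and no other kept cell exceeded the lowest of these values. The mean Ngfr level of all other kept cells was 22.6 CPM. Anxa2 stood at 8233, 6519 and 5611 CPM, and only 5 other cells exceeded the lowest value. Lgals1 stood at 5699, 4886 and 4216 CPM, exceeded by 37 other cells. The 7 immune markers were at 0 in all 3 cells, and Sox10, the Schwann lineage transcription factor, was read in each at 50.7, 1380 and 693 CPM. Of the other Schwann lineage markers, Cnp stood at 1043, 1189 and 1047 CPM, Erbb3 at 239, 0 and 1.87 CPM and Gjb1 at 12.99, 0 and 142 CPM. S100b was near 0 in them, at 0.618, 0 and 9.36 CPM. The median of the other immature cells of either plate was also 0 CPM, and that of the other intermediate cells of replicate 2 was 145 CPM. None of the other immature markers was high together with Ngfr in all 3 cells. L1cam was high in the first cell only, at 199, 0 and 0 CPM against a mean of 19.6 CPM in the other kept cells. Ncam1 stood at 1.24, 0 and 0 CPM against a mean of 249.9 CPM in the other kept cells. Gap43 and Cdh2, rarely read in any cell, were at 0. Pmp22 stood at 1155, 2815 and 1599 CPM, against a median of 7622 CPM in the other kept cells of all states. The state rule itself keeps intermediate cells below 30000 CPM of Pmp22, and that median includes the myelinating cells at or above this limit. Pmp22 of the 3 cells was not compared with cells of the same state. The intermediate cell was assigned to that state with 52.6 CPM of Ncmap, while the immature cells had no Ncmap read. With 3 cells from 2 plates these values are a description.

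S100 genes near each other on chromosome 3 differed in their pattern. S100a4 (90603771 to 90606045, plus strand) and S100a6 (90612882 to 90624181, plus strand) lie 6837 bases apart, and S100a11 (93520488 to 93526287) and S100a10 (93555080 to 93564643) lie 28793 bases apart, both on the plus strand. S100b lies apart from that cluster on chromosome 10 (76253853 to 76261159, plus strand). Below are 230 bases ending just before the RefSeq start of S100a4, S100a11 and S100b, the S100 members whose levels spread most between states. Those of S100a6, which lies near S100a4 and had no call in the edgeR fit, are given too. They are shown so that nearby genes with different patterns can be read side by side. The windows are chr3:90603520-90603749 for S100a4, chr3:90612644-90612873 for S100a6, chr3:93520246-93520475 for S100a11 and chr10:76253586-76253815 for S100b, all in GRCm38.p6 on the plus strand. Capitals mark matches on either strand. The motifs searched were ACAAAG for the SOX core, TGANTCA for AP-1 factors, GGAATG for TEAD factors, GGGCGG for the GC box and TATAAA for the box of that name.
S100a4: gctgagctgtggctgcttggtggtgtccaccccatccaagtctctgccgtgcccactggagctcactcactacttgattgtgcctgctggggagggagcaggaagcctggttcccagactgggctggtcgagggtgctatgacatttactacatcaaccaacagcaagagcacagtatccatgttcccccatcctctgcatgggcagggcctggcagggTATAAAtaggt
S100a6: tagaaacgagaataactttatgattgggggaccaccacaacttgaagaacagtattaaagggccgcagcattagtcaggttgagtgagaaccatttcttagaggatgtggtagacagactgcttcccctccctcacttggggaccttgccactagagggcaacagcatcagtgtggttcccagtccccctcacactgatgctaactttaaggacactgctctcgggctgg
S100a11: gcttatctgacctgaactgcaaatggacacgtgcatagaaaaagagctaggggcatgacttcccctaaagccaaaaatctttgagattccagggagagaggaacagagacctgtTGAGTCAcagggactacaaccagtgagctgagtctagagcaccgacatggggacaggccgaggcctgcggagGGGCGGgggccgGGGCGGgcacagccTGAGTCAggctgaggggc
S100b: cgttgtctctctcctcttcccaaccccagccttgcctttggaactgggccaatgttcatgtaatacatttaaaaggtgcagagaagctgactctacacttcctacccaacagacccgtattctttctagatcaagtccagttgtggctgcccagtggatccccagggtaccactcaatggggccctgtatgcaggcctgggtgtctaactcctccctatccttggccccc

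S100a4 held 1 TATAAA, close to the end of the window, which 11.8% of 32851 windows of the same length held. S100a11 held 2 TGANTCA and 2 GGGCGG, found in 6.34% and 29.8% of all windows, and none of these matches overlapped. S100a6 and S100b held no match. A match is only a run of letters, and a window without one says nothing of the factor.

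S100a4 encodes a small protein that binds non-muscle myosin and is associated with motile cells. Its level was 364 and 410 CPM in cycling cells, 264 and 201 CPM in immature cells, 320 and 581 CPM in intermediate cells, and 21.5 and 50.3 CPM in myelinating cells. Both myelinating sums lay below all other sums, and the intermediate sums lay above the immature sums of both plates.

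S100a4 fell by 3.4 ± 0.43 (SE) on the log2 scale from intermediate to myelinating cells (edgeR adjusted p = 0.00917) and by 2.31 ± 0.41 from immature to myelinating cells (edgeR adjusted p = 0.013), in both plates. The second call was lost with the Pmp22 limit at 20000 CPM (log2 change −1.64, adjusted p = 0.0706). The change from immature to intermediate cells was 1.09 ± 0.40 (adjusted p = 0.32) and that from immature to cycling cells 0.84 ± 0.40 (adjusted p = 0.356), neither of which passed.

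S100a4 was read in some cells and not in others within each state. The share with 5 or more reads was 58.6% ± 7.69 (SD, n = 2 plates) of cycling, 49.2% ± 1.16 of immature, 64.2% ± 10.2 of intermediate and 25.7% ± 4.94 of myelinating cells. With every cell thinned to 200000 reads, which left out 66 shallower cells, the shares were 57.6%, 47.3%, 61.9% and 22.96%. The order of the states did not turn with depth. Myelinating cells with S100a4 also held less of it, and their highest cells had 223 and 660 CPM against 2262 and 3214 CPM in intermediate cells of the same plates.

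Along the Pmp22 bins the mean level of S100a4 was 635, 385, 125, 46.0, 32.2 and 28.5 CPM, and the share of cells with 5 or more reads went from 72.6% in the lowest bin to 24.2% in the highest. Most of the step lay below 40517 CPM of Pmp22, the upper end of bin 3. The reads of S100a4 are not its own alone. The gene Gm42674, on the same strand, shares 302 of the 584 exon bases of S100a4, and its reads were 77.9% to 101% of those of S100a4 in the 8 sums, so the reads of this locus cannot be divided between them.

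**Figure D4:**
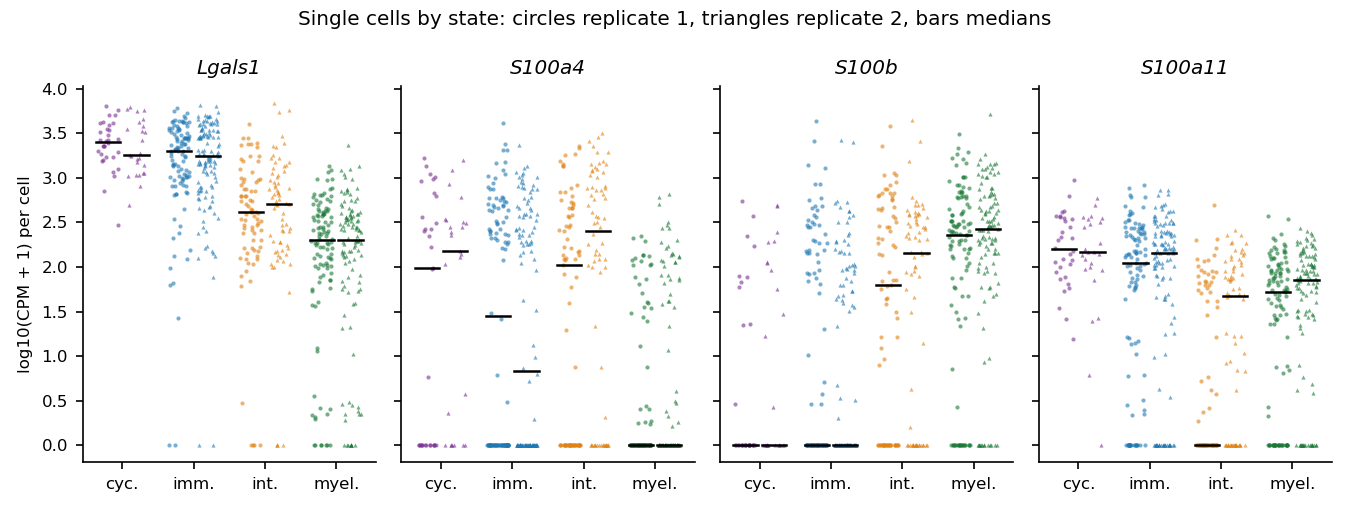
Lgals1, S100a4, S100b and S100a11 in single cells, as log10(CPM + 1), by state and replicate, with bars at the medians of replicates 1 (circles) and 2 (triangles). Lgals1 shifts as a whole between states, whereas S100a4 and S100b hold a band of cells at 0 in every state.

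S100b encodes the beta subunit that forms homodimers in glia. Its level was 40.3 and 73.8 CPM in cycling cells, 289 and 139 CPM in immature cells, 324 and 408 CPM in intermediate cells, and 432 and 487 CPM in myelinating cells. Cycling sums lay lowest and myelinating sums highest. The change from immature to myelinating cells was 1.49 ± 0.38 (SE) on the log2 scale and missed the threshold (edgeR adjusted p = 0.0647). It passed in 6 of 12 alternatives, with adjusted p from 9e-05 to 0.103. The change from immature to intermediate cells also missed it (0.91 ± 0.37, adjusted p = 0.418).

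The immature sums depended on single cells. In replicate 1, 1 of 106 immature cells with 4367 CPM held 60.8% of the S100b reads, and without it the level was 118 CPM. Without the highest immature cell of replicate 2 the level there was 99.9 CPM. When the highest cell of each gene was left out of every sum, an alternative added after the values had been seen, S100b was 2.24 higher on the log2 scale in myelinating than in immature cells (edgeR adjusted p = 0.0137).

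S100b fell by 1.80 ± 0.38 on the log2 scale from immature to cycling cells (edgeR adjusted p = 0.0489), in both plates. That call stood at the edge of the threshold. With the plate as a replicate block the adjusted p was 0.0852, with cells thinned it was 0.167, and without the highest cell it was 0.199, with log2 changes of −1.82, −1.08 and −0.99. Over all 12 alternatives the adjusted p ran from 8.03e-06 to 0.199, and 5 of them passed.

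The share of cells with S100b also differed between states. With 5 or more reads, S100b was detected in 37.6% ± 9.02 (SD, n = 2 plates) of cycling, 39.1% ± 0.78 of immature, 65.3% ± 4.63 of intermediate and 83.6% ± 5.64 of myelinating cells. After thinning to 200000 reads the shares were 33.9%, 38.0%, 67.4% and 82.0%. Cycling and immature cells did not differ in this share beyond the spread between plates, and from immature to myelinating cells the plates of each state lay above those of the state before. Along the Pmp22 bins the mean level had no steady direction, at 544, 267, 257, 604, 302 and 532 CPM, while the share of cells with 5 or more reads was 58.1% in the lowest and 93.5% in the highest bin. S100b overlaps Dip2a, on the opposite strand, without shared exon bases, and Dip2a held 4.03 to 22.3 CPM.

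S100a6, or calcyclin, binds annexins and the calcyclin-binding protein encoded by Cacybp. Its level was 466 and 534 CPM in cycling cells, 517 and 671 CPM in immature cells, 674 and 1020 CPM in intermediate cells, and 674 and 996 CPM in myelinating cells. The replicates differed by more than the states did from intermediate to myelinating cells, and replicate 2 was the higher in every state. The change from immature to myelinating cells was 0.87 ± 0.25 (SE) on the log2 scale (edgeR adjusted p = 0.101). With the plate as a replicate block it was 0.86 with an adjusted p of 0.0107, which passed. The log2 CPM ratios within plates, without the scaling of edgeR, were smaller, at 0.38 and 0.57. S100a6 was found in nearly every cell, with 5 or more reads in 96.4% to 99.1% of cells by state.

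S100a11, or calgizzarin, had its lowest mean in the intermediate state. Its level was 228 and 202 CPM in cycling cells, 131 and 165 CPM in immature cells, 33.0 and 58.6 CPM in intermediate cells, and 56.3 and 78.6 CPM in myelinating cells. Cycling sums lay above immature sums and these above the others, while the intermediate and myelinating ranges overlapped. The change from immature to intermediate cells was −1.56 ± 0.32 (SE) on the log2 scale and just missed the threshold (edgeR adjusted p = 0.0502). With the plate as a replicate block it passed (−1.59, adjusted p = 0.0398), and 7 of 12 alternatives passed, with adjusted p from 0.000417 to 0.0756. The changes from intermediate to myelinating cells (0.81 ± 0.32, adjusted p = 0.453) and from immature to myelinating cells (−0.75 ± 0.32, adjusted p = 0.284) did not pass.

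By cell, 96.0% ± 5.66 (SD, n = 2 plates) of cycling, 74.6% ± 0.04 of immature, 51.0% ± 16.7 of intermediate and 74.1% ± 5.31 of myelinating cells had 5 or more S100a11 reads. The intermediate plates were far apart, at 39.2% (95% Clopper-Pearson interval 28.4% to 50.9%) and 62.9% (50.5% to 74.1%). Both lay under the plates of every other state.

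S100a10 and Anxa2, the partners of the annexin A2 tetramer, were the most even of the set. Anxa2 lies on chromosome 9 (69453620 to 69491795, plus strand). Anxa2 was at 2160 and 1677 CPM in cycling cells, 2075 and 2025 CPM in immature cells, 1717 and 1838 CPM in intermediate cells, and 2197 and 1840 CPM in myelinating cells. S100a10 was at 328 and 312 CPM, 268 and 362 CPM, 244 and 300 CPM, and 264 and 353 CPM in the same order. The state ranges of each overlapped with at least 1 other state, and none of the 8 changes passed. edgeR scales the sums by TMM, which moves its changes away from plain CPM ratios. From immature to myelinating cells its change for Anxa2 was 0.36, while the log2 CPM ratios within plates were 0.08 and −0.14, and for S100a10 it was 0.35 against ratios of −0.02 and −0.04. The fitted changes lay between −0.08 and 0.43 on the log2 scale, with SE of 0.15 for Anxa2 and 0.22 for S100a10. For Anxa2 the change of 0.43 from intermediate to myelinating cells had an adjusted p of 0.362. The sign of 5 of these small changes turned under at least 1 alternative with a test. For S100a10 from immature to cycling cells the log2 CPM ratios within plates, at 0.29 and −0.22, also differed in sign.

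Anxa2 was detected with 5 or more reads in at least 97.4% of cells in each state. S100a10 was detected in 91.3% ± 0.97 (SD, n = 2 plates) of cycling, 76.1% ± 4.86 of immature, 76.8% ± 6.56 of intermediate and 91.4% ± 0.37 of myelinating cells, so its share was lower in the states between although its summed level was even. After thinning the shares were 90.3%, 73.1%, 79.0% and 91.02%.

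Per kilobase of exon, levels of genes can be set roughly side by side. The length was that of all annotated exon bases of a gene, 3731 for Anxa2 and 1367 for S100a6. Transcripts read may be shorter, so the order of genes depends on the annotation, and reads of S100a4 could not be divided from those of Gm42674. Lgals1 led the set in cycling and immature cells, at 3112 ± 122 and 2336 ± 101 CPM per kilobase (SD, n = 2). In immature cells Anxa2 followed at 549 ± 9.47, S100a6 at 435 ± 79.9, S100a4 at 398 ± 76.2, S100a11 at 289 ± 46.4, S100a10 at 260 ± 55.4 and S100b at 144 ± 71.7. S100a6 and S100a4 did not differ there beyond their spread, nor did S100a11 and S100a10. In myelinating cells the order was led by S100a6 at 611 ± 167 and Anxa2 at 541 ± 67.7, which overlapped, before S100b at 310 ± 26.0 and Lgals1 at 309 ± 16.6. S100a10 followed there at 254 ± 52.0, S100a11 at 132 ± 30.8 and S100a4 at 61.5 ± 34.8.

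**Figure D5:**
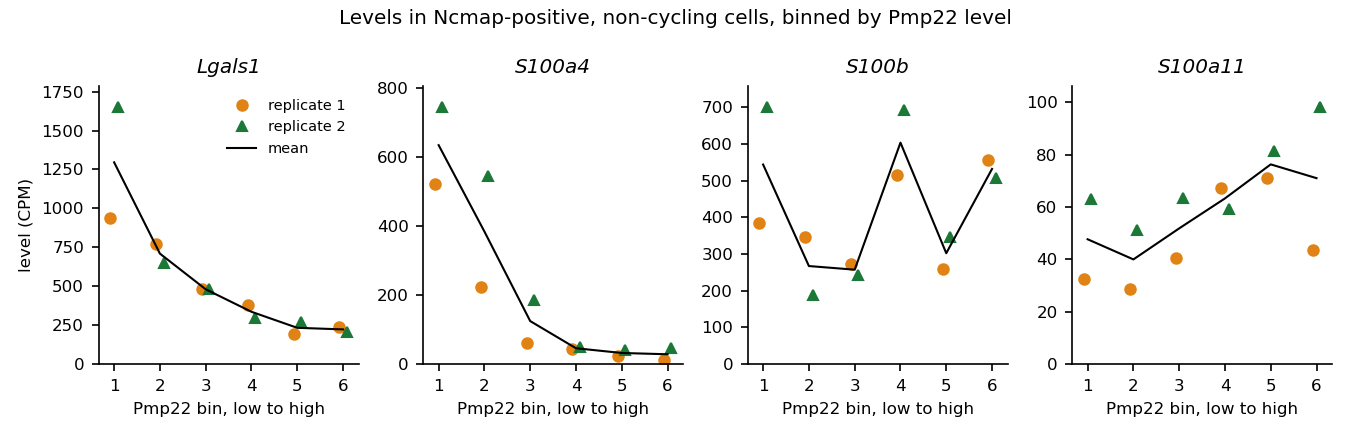
Levels of Lgals1, S100a4, S100b and S100a11 (CPM, linear axis from 0) in 6 bins of Ncmap-positive cells ordered by Pmp22, as circles and triangles for replicates 1 and 2 and a line through their means. Lgals1 and S100a4 decline from the lowest bin, S100b has no steady direction, and S100a11 has means of 40.0 to 76.3 CPM.

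Within a plate and state most pairs of the genes varied over cells with little in common. Over the 8 sums the median Spearman rho of cells was 0.36 for Lgals1 and S100a11, the highest of the 21 pairs, with a range from −0.09 to 0.66. For this pair rho differed by state, at 0.66 and 0.55 in cycling and 0.44 and 0.53 in immature cells of replicates 1 and 2. It was 0.29 and 0.20 in intermediate and −0.09 and −0.02 in myelinating cells. The median was 0.27 for S100a6 and S100a10, positive in 8 of 8 sums, and 0.18 for the partners S100a10 and Anxa2, also positive in 8 of 8. That pair did not stand out, as the medians with Anxa2 were 0.23 for S100a11, 0.20 for Lgals1 and 0.18 for S100a6. For S100a4 and S100b they were −0.02 and −0.05. S100b had medians between −0.14 and 0.12 with the other genes. S100a6 correlated with the number of reads per cell at −0.21. These cells share their library and depth, most of the values were weak, and all of them are no more than a description.

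Over the 8 sums, the genes whose log2(CPM + 1) followed Lgals1 most closely, among 1972 genes with a mean of 100 CPM or more, were Dynlt1c (r = 0.999), a dynein light chain gene, and Gm20458 (r = 0.996). For S100b they were Atp6v0e (0.977), a subunit of the vacuolar proton pump, and Fa2h (0.967), which makes the hydroxylated fatty acids of myelin lipids. For S100a4 they were the overlapping Gm42674 (1.000) and Ddx39b (0.953), for S100a11 Oaf (0.969) and Crip1 (0.968), for S100a6 Tma7 (0.945) and Fibp (0.905), for S100a10 Tmsb10 (0.856) and Mtpn (0.812), and for Anxa2 Fkbp9 (0.858) and Surf4 (0.858). Lgals3, whose sums rest on single cells, was closest to Txndc17 (0.915) and Atp5d (0.908). The 8 points come from 2 plates and 4 states.

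The other members of the 3 families were mostly low. Of 9 galectins in the table, 3 had a mean of 20 CPM or more over the sums, and Lgals8 was the only one besides Lgals1 and Lgals3, with 10.5 to 47.6 CPM. The remaining 6 had means up to 9.55 CPM. Apart from Lgals1, none of the 7 galectins tested passed in any comparison.

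Of 16 S100 genes, 9 reached 20 CPM, and S100a8, S100a9 and S100z had no read. S100a3, another gene of the chromosome 3 cluster, was read almost entirely in intermediate and myelinating cells. It had 0 and 0 CPM in cycling cells, 0.278 and 0.0667 CPM in immature cells, 29.8 and 66.9 CPM in intermediate cells and 71.9 and 96.3 CPM in myelinating cells. S100a3 rose by a log2 change of 8.26 ± 0.89 (SE) from immature to intermediate cells (edgeR adjusted p = 0.00439) and of 9.31 ± 0.93 from immature to myelinating cells (adjusted p = 0.00107), and its size depends on the 15 and 4 reads in immature cells. Of the 9 S100 genes tested, 1 was called higher (S100a3) and 0 lower from immature to intermediate cells, against 1.95% of all genes called. From immature to myelinating cells 1 was called higher (S100a3) and 1 lower (S100a4), against 5.1%. From intermediate to myelinating cells 0 were called higher and 1 lower (S100a4), against 0.77%. From immature to cycling cells 0 were called higher and 1 lower (S100b), against 2.46%. S100a16 had its highest mean in intermediate cells, at 276 and 399 CPM against 172 and 234 CPM in immature cells, a change of 0.86 ± 0.28 that did not pass (adjusted p = 0.236). S100a1 had 0 to 21.4 CPM in cycling cells and 106 to 148 CPM in myelinating cells, and S100a13 21.3 to 52.1 CPM in all sums, and neither passed in any comparison.

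Of 11 annexins, 7 reached 20 CPM. Anxa5, which binds phosphatidylserine and is used to stain dying cells, fell on the way from immature to intermediate cells, as Lgals1 did. It had 1343 and 1118 CPM in cycling cells, 1190 and 1102 CPM in immature cells, 469 and 596 CPM in intermediate cells and 523 and 506 CPM in myelinating cells. Anxa5 fell by 0.97 ± 0.16 (SE) on the log2 scale from immature to intermediate cells (edgeR adjusted p = 0.0169) and by 0.77 ± 0.15 from immature to myelinating cells (adjusted p = 0.0222). From intermediate to myelinating cells, where Lgals1 fell further, the change of Anxa5 was 0.20 ± 0.15 (adjusted p = 0.8) with opposite signs in the plates. No other annexin of the 10 tested passed in any comparison. Anxa3 came nearest, with 29.2 and 37.2 CPM in immature, 8.55 and 5.52 CPM in intermediate and 31.8 and 28.0 CPM in myelinating cells, at adjusted p of 0.0587 and 0.0729 for the steps on either side of the intermediate state. Anxa1 was at 7.12 CPM in intermediate cells of replicate 1 and 213 CPM in those of replicate 2. Anxa4 held 6.97 to 53.7 CPM, Anxa6 110 to 231 CPM and Anxa7 18.7 to 74.8 CPM.

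Of 10 genes whose products are known to work with these proteins, 5 reached 20 CPM and 9 were tested. Cd44, the hyaluronan receptor and a glycoprotein ligand of galectins, had 108 and 128 CPM in cycling, 214 and 59.6 CPM in immature, 41.2 and 77.4 CPM in intermediate and 0.0406 and 0.0459 CPM in myelinating cells. Cd44 fell by 10.11 ± 0.85 (SE) on the log2 scale from intermediate to myelinating cells (edgeR adjusted p = 0.00127), where only 4 reads in each plate were left. Plat, the tissue plasminogen activator that the annexin A2 tetramer binds, fell by 2.6 ± 0.49 from immature to intermediate cells (adjusted p = 0.0326), from 53.4 and 101 CPM to 8.19 and 15.1 CPM. It also fell from immature to myelinating cells (−2.06 ± 0.48, adjusted p = 0.0425).

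St6gal1, a sialyltransferase whose product masks galactose from galectins, rose by 2.84 ± 0.36 (SE) on the log2 scale from immature cells at 27.3 and 24.02 CPM to myelinating cells at 122 and 160 CPM (edgeR adjusted p = 0.00217). Ahnak, a large scaffold protein that binds the annexin A2 tetramer, held 142 to 246 CPM, and Cacybp 101 to 231 CPM, and neither passed in any comparison. Of the 9 partners tested, 0 were called higher and 1 lower (Plat) from immature to intermediate cells, against 1.95% of all genes called. From immature to myelinating cells 1 was called higher (St6gal1) and 2 lower (Plat, Cd44), against 5.1%. From intermediate to myelinating cells 0 were called higher and 1 lower (Cd44), against 0.77%. From immature to cycling cells none of the 9 passed by edgeR, with 2 at an unadjusted p under 0.05 and 2.46% of all genes called.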

How the data were processed

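The values deposited are raw counts of reads for each gene in each of 768 wells on 2 plates, which the authors made from Smart-Seq2 reads with STAR and featureCounts. The methods of the study give a human genome build with an Ensembl annotation, whereas the submitters' processing notes name STAR 2.6.1c and GRCm38.p5, and the gene identifiers are of mouse. How featureCounts treated reads of overlapping genes is not given in the sources used here. Identifiers were matched to GENCODE vM21 (25587 of 25700 genes), and the 113 others held 0.0916% of the reads. Sequences are from RefSeq (GRCm38.p6).

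The members, gene lists and tests were chosen with earlier results of these data known. Wells were kept with at least 1500 detected genes (the limit of the study) outside the 4 corners, and doublets were not searched for. Raw counts were summed per plate and state into 8 sums and fitted with edgeR 4.0.16 in R 4.3.3 (quasi-likelihood test, TMM scaling, filterByExpr). All states shared the spread (common dispersion 0.713, residual degrees of freedom 4). The 12 genes of the state rule were left out of the tests, and p-values were adjusted by the Benjamini-Hochberg method over 13892 genes at a threshold of 0.05. Log2 ratios within a plate, used for direction only, had 1 CPM added. The scripts were tested on simulated data. CPM are counts scaled to the same total in every sum or cell. The total per plate was 226050990 and 203322077 reads. Without molecular identifiers, intervals and limits of zero counts (3 counts) cover counting error only.

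Named genes were the 8 members, genes of the family and partner lists with a mean of 20 CPM or more over the sums, and the 2 genes most like each member. Sums of a plate come from the same pooled pups, so plate numbers pair the sums. Deviations from the state means correlated weakly between states of a plate, with r from -0.01 to 0.12 over 1990 genes. Alternatives were DESeq2 1.42.0, DESeq2 size factors in edgeR, no filter on low counts, 2500 detected genes, an Ncmap limit of 50 CPM, Pmp22 limits of 20000 and 40000 CPM, the plate as a replicate block, cells thinned to 200000 reads (589 cells), limma 3.58.1 on log2(mean CPM over cells + 1), wells without plate columns 8 and 16, each plate left out, and, added after seeing the data, each gene without its highest cell. Results that need items withheld for evaluation are not reported here.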

Additional observations from a re-analysis of the deposited data

Results flagged for a closer look

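Wells left out of every comparison still held reads of 7 of the 8 genes, above the limit of 3 counts that a count of 0 allows in at least 1 kind of well. The 105 wells with fewer than 1500 detected genes outside the corners held 3077 reads of Lgals1, 10245 of S100b, 215 of S100a4, 3544 of S100a6, 1699 of S100a10, 272 of S100a11 and 6173 of Anxa2, and no read of Lgals3. S100b stood at 1407 CPM there, above its level in each of the 8 sums of kept cells (40.3 to 487 CPM). The highest of these wells held 31.7% of its reads, and 11 wells held 5 or more. The level of S100a4 there, 29.5 CPM, lay within the range of the myelinating sums. It rested on few wells, with 5 or more reads in 2 of them and 66.0% of the reads in 1. The 8 corner wells held 6 reads of Lgals1, 68 of S100a6, 53 of S100a10 and 26 of Anxa2 among 158513 reads, and none of the other genes.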

How the results depend on the processing

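Of 7 members tested, 2 passed from intermediate to myelinating cells in every alternative with a test, and these were Lgals1 and S100a4. From immature to intermediate cells the number that passed was 2 with DESeq2, the replicate block, the Pmp22 limit of 40000 CPM, limma and without the highest cell, and 4 without a filter on low counts, and the 1 that passed with the Pmp22 limit of 20000 CPM was S100a11. From immature to myelinating cells it was 4 with DESeq2, without a filter and with limma, 3 with the replicate block (S100a6 added) and with the Pmp22 limit of 40000 CPM, thinned cells and without the highest cell (S100b added), and 1 with the Pmp22 limit of 20000 CPM. From immature to cycling cells it was 2 with DESeq2 and 0 with DESeq2 size factors, the replicate block, 2500 detected genes, the Pmp22 limit of 20000 CPM, thinned cells and limma, and the 1 without the highest cell was Lgals1. Genes called from immature to intermediate cells numbered 271, and 917 with DESeq2, 682 without a filter and 458 with limma. From intermediate to myelinating cells they numbered 107, and 634, 420 and 301 with the same alternatives. From immature to myelinating cells they numbered 708, and 1493, 1187 and 1574. From immature to cycling cells they numbered 342, and 1295, 838 and 785, and 768 without the highest cell of each gene. The cause of these differences was not tested. Among the alternatives with a test, signs turned only for changes that had not passed. S100a10 from immature to intermediate cells was 0.0363 with 2500 detected genes, 0.0134 with the Ncmap limit of 50 CPM, 0.00028 with the Pmp22 limit of 40000 CPM and 0.0033 without the highest cell. Anxa2 was 0.0407 there with the Pmp22 limit of 40000 CPM. From immature to myelinating cells S100a10 was -0.0723 and Anxa2 -0.0715 with limma, against 0.35 and 0.36. From immature to cycling cells S100a6 was 0.0904 without the highest cell, and Anxa2 was -0.0015 with the replicate block, -0.0097 with 2500 detected genes and -0.0324 with limma. Under limma the median change of all genes was −0.32 from immature to myelinating cells. With 1 plate left out no degrees of freedom remain, so those values carry no test and their signs are not included above. Apart from S100a11, S100a6 and S100b, where given, the replicate block changed no call of a member.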
